A study of Mus musculus with 6 samples.

Results

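Cytochrome P450 family 2 is the largest family of P450 genes in the mouse. The genes with a family 2 symbol (Cyp2 followed by a subfamily letter and a number) were taken from the annotation of the array, and 35 genes with 42 probe sets were found among the 18193 genes measured. RefSeq lists 47 protein-coding Cyp2 genes, and 34 of them are in this set, as is Cyp2d13, which RefSeq now lists as a transcribed pseudogene. One more probe set, annotated to 2 Cyp2a genes at once, was kept apart.

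The study profiled whole back skin of 6 female mice from a single litter at postnatal day 2.5, with 1 Affymetrix array per mouse. The 3 caNrf2 mice were K5cre-caNrf2 (tg/tg), in which keratinocytes with an active keratin 5 promoter carry a constitutively active Nrf2. The 3 control mice were K5cre-wt (tg/wt). All were of mixed FVB/N/C57BL/6 background, so both groups share the K5cre label, the litter, the sex and the age. The genotype cell of the caNrf2 mice is spelled tg/g and the treatment cell names CaNrf2 for the controls too, and the groups follow the sample titles. The titles read transgene strong for the caNrf2 and wildtype strong for the control mice, so all 6 share the word strong. The transgene acts in cells that express keratin 5 and in their descendants, while the RNA comes from every cell type of the skin. In such bulk RNA, fewer cells of a type and less RNA per cell cannot be told apart.

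Family 2 enzymes are haem proteins of the endoplasmic reticulum that insert oxygen into drugs, toxicants, steroids, retinoids and fatty acids. They draw electrons from NADPH through P450 reductase and cytochrome b5. Most are best known from liver, where nuclear receptors such as CAR (Nr1i3) and PXR (Nr1i2) control them, but a few, such as Cyp2b19 and Cyp2s1, are typical of epithelia. Some convert arachidonic acid to epoxides that soluble and microsomal epoxide hydrolases then open.

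Levels are given as array intensities (linear, one probe set per gene), and differences are log2 fold changes of caNrf2 over control with the standard error (SE) of the limma fit. The threshold for a call was an adjusted p under 0.05 (limma, Benjamini-Hochberg over all 18193 genes). All mice were female, so the 15 probe sets of Y-linked genes gauge the signal without a target, and a gene whose group means were both at or under the highest Y-linked group mean, 61.6, was marked as near background. That limit comes from an Sry probe set, and 13 of the 15 stayed under 33. The quinone reductase Nqo1, a standard Nrf2 target, read 1315, 1432 and 1512 in the caNrf2 mice and 72.6, 66.2 and 64.3 in the controls. Intensities of different probe sets cannot be set against each other, so levels are compared only between mice.

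Of the 35 Cyp2 genes, 26 (74.3%) were near background in both groups, against 30.5% of all genes. The 9 genes above it were Cyp2b19, Cyp2f2, Cyp2g1, Cyp2b10, Cyp2s1, Cyp2a12, Cyp2c29, Cyp2j6 and Cyp2d22. In limma, Cyp2b19 and Cyp2g1 rose, Cyp2f2 fell and 32 genes did not pass. Across all genes, 2.26% were called higher and 1.39% lower, while the 2 higher Cyp2 genes are 5.71% of the family and the 1 lower gene 2.86%. These shares rest on 3 genes and are given as a description. The median log2 fold change was 0.11 over the family and -0.00 over all genes.

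**Figure D1:**
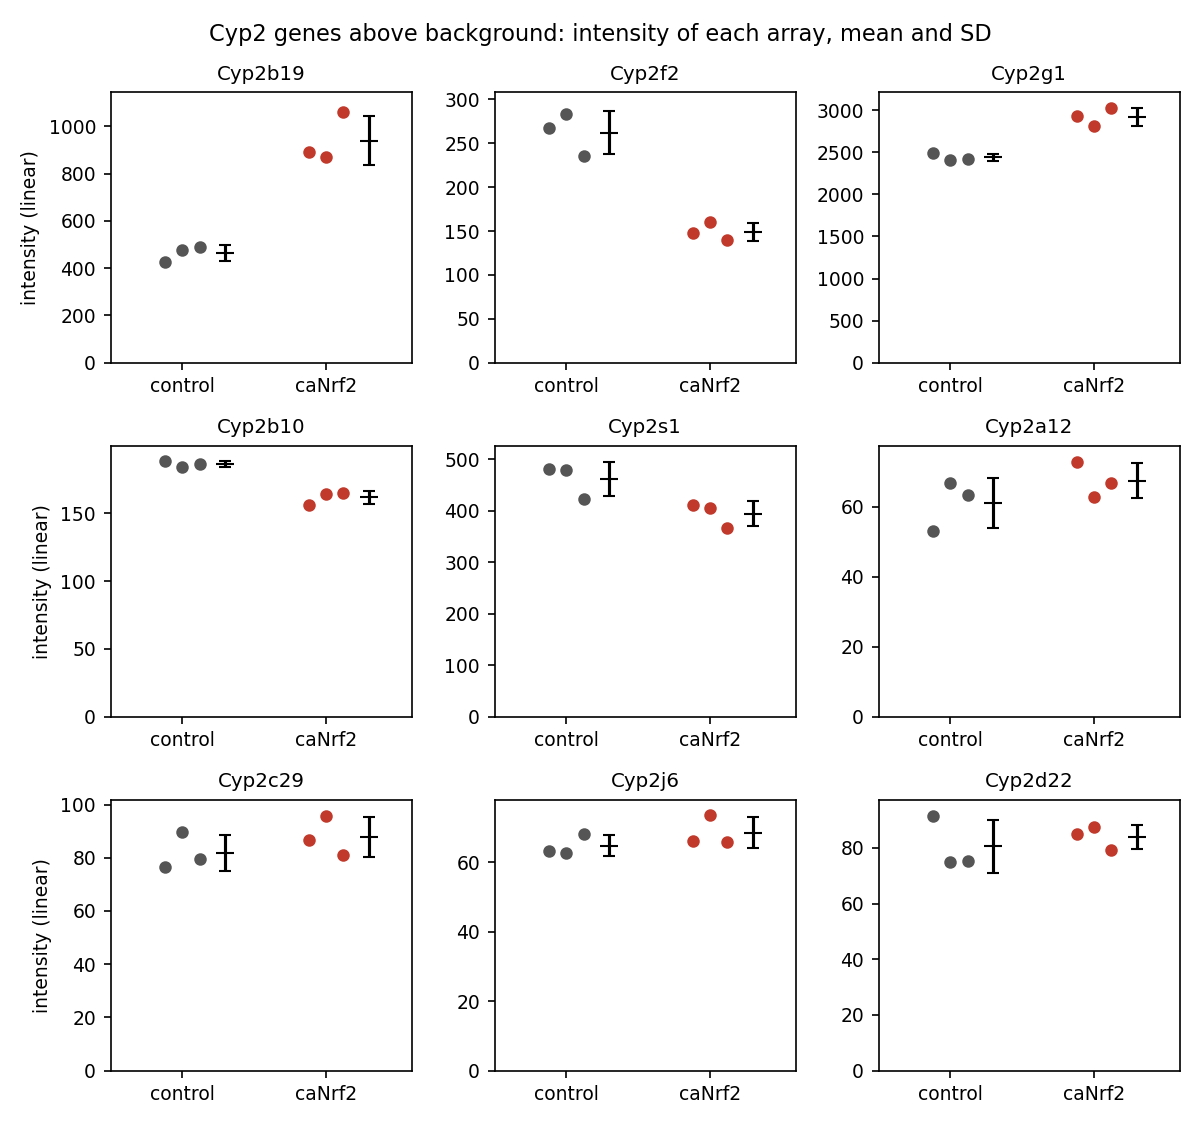
Intensity (linear scale, each panel with its own axis from 0) of the 9 Cyp2 genes above background in the 3 control and 3 caNrf2 mice, with the mean and SD beside the points. Cyp2b19 and Cyp2g1 are higher and Cyp2f2, Cyp2b10 and Cyp2s1 lower in every caNrf2 mouse, while the groups overlap for the other 4 genes.

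Cyp2b19, an arachidonic acid epoxygenase known from differentiating keratinocytes, had the largest change of the family. It read 890, 870 and 1059 in the caNrf2 mice and 426, 475 and 490 in the controls. The lowest caNrf2 mouse lay far above the highest control, and caNrf2 replicate 3 was the highest. The means were 940 ± 104 and 464 ± 33.5 (SD, n = 3), a 2.02-fold rise and a log2 fold change of 1.02 ± 0.09 (SE; 95% confidence interval 0.82 to 1.21; limma, adjusted p = 0.000154). It ranked 59 among all genes by size of the rise. With any 1 mouse left out the log2 fold change stayed between 0.93 and 1.07 and the gene stayed called. The markers of suprabasal keratinocytes, the layer in which Cyp2b19 is known, had a median log2 fold change of 0.04. Of 9 measured, 7 had a value above 0 and 0 were called higher. Krt2, among those above 0, was near background in both groups. Krt77 and Ivl, 2 of the 9, were called lower (22.2%, against 1.39% of all genes). The summed intensity of the 9 markers ran from 78301 to 81587 in the caNrf2 and from 77263 to 79980 in the control mice. For 7 basal markers the sums were 36410 to 36693 and 36559 to 37447, so in both lists the groups overlapped. The basal sum rests mostly on Krt5 and Krt14. Of the 7 basal markers, 3 were above 0 and 0 were called higher, and Krt15 was called lower at -0.30 ± 0.06 (14.3%, against 1.39% of all genes). Krt14 and Itgb4 read higher in every caNrf2 mouse but did not pass. The suprabasal sum rests mostly on Krt1, Krt10 and Lor, whose caNrf2 means of 18416, 20326 and 18966 lay near the highest values of the arrays (20444 to 21290), so a rise in that layer could not be read from it. A sum adds unlike probe sets and is compared only between mice. The sums of 7 endothelial genes were higher, at 2192 to 2217 in the caNrf2 and 2049 to 2117 in the control mice, with 0 called, and their part in the rise of Cyp2b19 was not tested.

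Cyp2g1, a P450 best known from olfactory mucosa, was higher by a much smaller step. It read 2928, 2807 and 3027 in the caNrf2 mice and 2486, 2407 and 2424 in the controls. The groups did not overlap, but the gap between them was narrow relative to the level. The log2 fold change was 0.26 ± 0.06 (SE; 1.20-fold; interval 0.13 to 0.39; limma, adjusted p = 0.0426). The call was lost with any 1 of the 6 mice left out, at adjusted p from 0.0608 to 0.138, while the log2 fold change stayed between 0.23 and 0.29. It was also lost after a further quantile normalization, at an adjusted p of 0.0509.

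Cyp2f2 was the only family member called lower. It is known from the club cells of the airway, where it activates naphthalene. It read 148, 160 and 140 in the caNrf2 mice and 267, 283 and 235 in the controls. Even the lowest control exceeded the highest caNrf2 mouse by a wide margin. The means were 149 ± 9.99 and 262 ± 24.6 (SD, n = 3), a 1.75-fold fall and a log2 fold change of -0.81 ± 0.08 (SE; interval -0.995 to -0.624; limma, adjusted p = 0.000483). By size of the fall it ranked 19 among all genes. With any 1 mouse left out the value stayed between -0.89 and -0.75 and remained called.

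Markers of several other cell types also read lower in the caNrf2 mice. The summed intensity of 13 hair shaft and root sheath keratins was 63763 to 66109 in the caNrf2 and 71344 to 76931 in the control mice, with 13 of 13 lower in the mean, 1 of them called. For 6 melanocyte genes the sums were 9765 to 10798 and 11554 to 12216, with 2 called lower. For 7 fibroblast genes they were 69837 to 71514 and 72105 to 74586, with none called. None of the markers in these 3 lists was near background. The median log2 fold changes of the 3 lists were -0.19, -0.22 and -0.06. Bright genes leaned down over the whole array. Of 12649 genes above background, 38.5% were above 0, 1.81% were called lower and the median was -0.03. The upper quartile of the arrays was 325 to 328 in the caNrf2 and 334 to 341 in the control mice. Its part in these marker values was not tested. Sums of 6 adipocyte genes (21167 to 22728 and 21272 to 22660) overlapped, with 1 called lower. Those of 8 sebocyte genes (25882 to 26306 and 24988 to 26531) overlapped too, but 6 of the 8 were lower in the mean, Elovl3 and Elovl5 were called lower, and Mgst1, a glutathione transferase, was called higher. Without Mgst1, left out after its value was seen, the sebocyte sums were 18535 to 18687 in the caNrf2 and 20027 to 21302 in the control mice and did not overlap. Sums of 7 skeletal muscle genes (49789 to 50842 and 50838 to 52854) overlapped at the edge, with 7 of 7 lower in the mean and none called. Those of 5 mast cell and 7 immune cell genes overlapped as well. The median log2 fold changes of these 3 lists were -0.05, 0.08 and 0.03. Of 10 hepatocyte genes, 6 were near background. That list had 1 call (10%, against 1.39% of all genes called lower), the urea cycle enzyme Cps1 at -0.37 ± 0.08. The part of these cell types in the Cyp2f2 values was not tested.

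Cyp2b10, the gene that CAR activators induce most strongly in liver, has 3 probe sets, and all 3 were lower in every caNrf2 mouse. The brightest, which stands for the gene, read 156, 164 and 165 in the caNrf2 and 189, 185 and 186 in the control mice. Its log2 fold change was -0.20 ± 0.06 (SE; interval -0.33 to -0.08), which did not pass (limma, adjusted p = 0.0857). The next, one of a pair marked _s_at, read 132, 152 and 139 against 197, 207 and 180, a log2 fold change of -0.46 ± 0.08. The dimmest, the other of the pair, read 77.4, 62.5 and 63.6 against 84.6, 95.1 and 94.1, a log2 fold change of -0.43 ± 0.09. Fitted among all single-gene probe sets these last 2 passed, at adjusted p = 0.0162 and 0.0455 (limma), while the brightest did not. With 1 mouse left out, the brighter of the pair passed in 3 of 6 fits (not without caNrf2 replicate 1 or 3 or control replicate 1, adjusted p up to 0.0694) and the dimmer in 1 of 6 (only without caNrf2 replicate 1, otherwise up to 0.146). The suffix _s_at marks probe sets that can detect more than 1 transcript, and whether other Cyp2b transcripts add to these values was not tested. With the mean over its probe sets, Cyp2b10 had -0.37 ± 0.05 and an adjusted p of 0.0041.

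**Figure D2:**
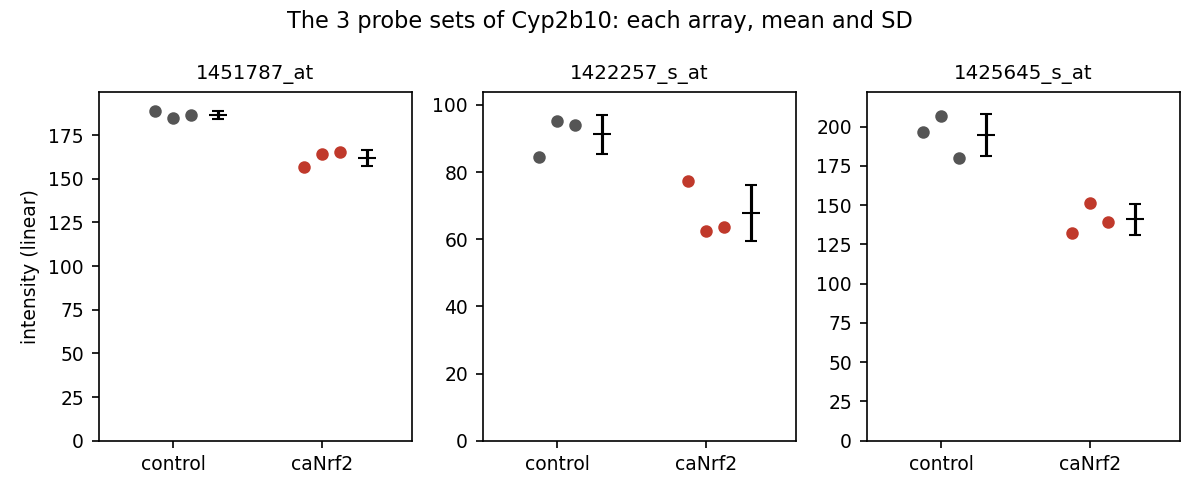
Intensity (linear scale, each axis from 0) of the 3 probe sets of Cyp2b10 in the 3 control and 3 caNrf2 mice, with the mean and SD. The groups do not overlap in any of them, and the log2 fold change is -0.20 in the left panel, -0.43 in the middle and -0.46 on the right.

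Cyp2b19 and Cyp2b10 lie in the same gene cluster and their promoters resemble each other, although Cyp2b19 rose and Cyp2b10 read lower. Both are shown to let a reader compare the sequences upstream of related genes that differ in direction. The windows hold 250 bases before and 50 bases from the start of the gene (RefSeq, GRCm38.p6, plus strand; chr7:26756892-26757191 and chr7:25897408-25897707). Capitals mark runs of at least 12 bases that are identical in a global alignment of both.
Cyp2b19: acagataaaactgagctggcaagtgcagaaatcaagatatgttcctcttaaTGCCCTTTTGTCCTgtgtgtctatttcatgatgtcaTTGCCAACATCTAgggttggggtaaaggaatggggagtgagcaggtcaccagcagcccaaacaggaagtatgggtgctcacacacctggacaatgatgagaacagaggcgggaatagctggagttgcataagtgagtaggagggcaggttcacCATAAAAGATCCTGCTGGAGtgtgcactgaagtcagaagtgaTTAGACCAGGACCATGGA
Cyp2b10: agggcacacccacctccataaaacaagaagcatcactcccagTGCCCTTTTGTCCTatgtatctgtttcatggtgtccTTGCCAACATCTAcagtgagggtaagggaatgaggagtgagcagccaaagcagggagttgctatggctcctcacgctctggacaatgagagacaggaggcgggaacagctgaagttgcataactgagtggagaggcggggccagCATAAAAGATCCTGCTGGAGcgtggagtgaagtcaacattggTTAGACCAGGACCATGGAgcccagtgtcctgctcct

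The windows were identical at 218 of 278 aligned bases (78.4%), with gaps not counted. Only part of these bases lay in the 4 marked runs, of 13 to 20 bases each. The promoters of Cyp2b9 and Cyp2b13, both near background on the array, were identical at 298 of 300 bases, and each matched that of Cyp2b19 at 76.4%. Their log2 fold changes were 0.11 ± 0.08 and 0.27 ± 0.09 (SE), and whether their probe sets share signal was not tested. The window of Cyp2f2 had no run of 12 identical bases with Cyp2b19 or Cyp2b10.

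The promoter of Cyp2f2 is shown because it is the member that fell. It lies on the plus strand at chr7:27119705-27120004 (RefSeq, GRCm38.p6), and capitals mark the nuclear receptor binding motif AGGTCA.
Cyp2f2: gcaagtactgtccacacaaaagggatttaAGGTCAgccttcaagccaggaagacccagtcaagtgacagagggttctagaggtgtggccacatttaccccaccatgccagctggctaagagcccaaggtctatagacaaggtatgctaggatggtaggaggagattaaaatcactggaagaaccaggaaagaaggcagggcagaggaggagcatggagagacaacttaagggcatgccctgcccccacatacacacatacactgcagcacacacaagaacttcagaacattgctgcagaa

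Promoter windows were found for 27 of the 35 genes, 29 windows in all, and were searched on both strands for 3 motifs, of which AGGTCA, read on the other strand, can overlap the TGAC of TGACNNNGC. The core of the antioxidant response element, the site that Nrf2 binds with a small Maf protein, was searched as TGACNNNGC. It was in 2 of 29 windows (6.9%), against 12.4% of all 32851 windows of the same length, and was not found in the windows of Cyp2b19 and Cyp2f2. The called gene Cyp2g1 was not among the genes with a window, so its promoter was not searched. The motif AGGTCA was in 9 of 29 (31%), against 16.3% of all windows. It lay from -121 to -116 relative to the start in Cyp2b19 and from -221 to -216 in Cyp2f2, and was not in the window of Cyp2b10. The TATA box TATAAA was in 13 of 29 (44.8%), against 13.6%. Windows of related genes are not independent, so these shares are only a description. Those of Cyp2b9 and Cyp2b13, which are nearly identical, both hold AGGTCA from -138 to -133. The windows that hold TGACNNNGC belong to Cyp2j6 (log2 fold change 0.08 ± 0.07) and Cyp2c65 (0.09 ± 0.07, near background), both of which did not pass. A stretch of each is printed with the motif, which lies on the opposite strand, in capitals (RefSeq, GRCm38.p6; chr4:96553618-96553646, minus strand, and chr19:39060988-39061016, plus strand).
Cyp2j6: actctcagaaGCTTTGTCActtcctgcga
Cyp2c65: ttggttgtgtGCACAGTCAtatcttaaga

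A match is only a match of letters, and no binding was measured here.

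Cyp2s1, an epithelial P450 that acts on retinoids, read 411, 404 and 366 in the caNrf2 and 481, 479 and 423 in the control mice. All caNrf2 mice lay under all controls, with replicate 3 the lowest of each group. The log2 fold change of -0.23 ± 0.07 (SE; interval -0.39 to -0.06) did not pass (limma, adjusted p = 0.137). Over all genes above background, the groups did not overlap in 17.2% that read lower and 10.5% that read higher. The values of Cyp2a12, Cyp2c29, Cyp2j6 and Cyp2d22 overlapped between the groups. The controls ran from 53.1 to 66.9 and the caNrf2 mice from 62.7 to 72.7 for Cyp2a12, an overlap at the edge of background. For Cyp2c29, an epoxygenase of liver, the ranges were 76.6 to 89.5 and 80.9 to 95.8. Cyp2j6 ran from 62.7 to 68.1 and from 65.7 to 73.6, and Cyp2d22 from 74.9 to 91.6 and from 79.1 to 87.7. None of these 4 genes passed, and their log2 fold changes were 0.15 ± 0.09, 0.10 ± 0.08, 0.08 ± 0.07 and 0.06 ± 0.09 in that order. The highest upper bound among their 95% intervals was 0.35, for Cyp2a12.

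**Figure D3:**
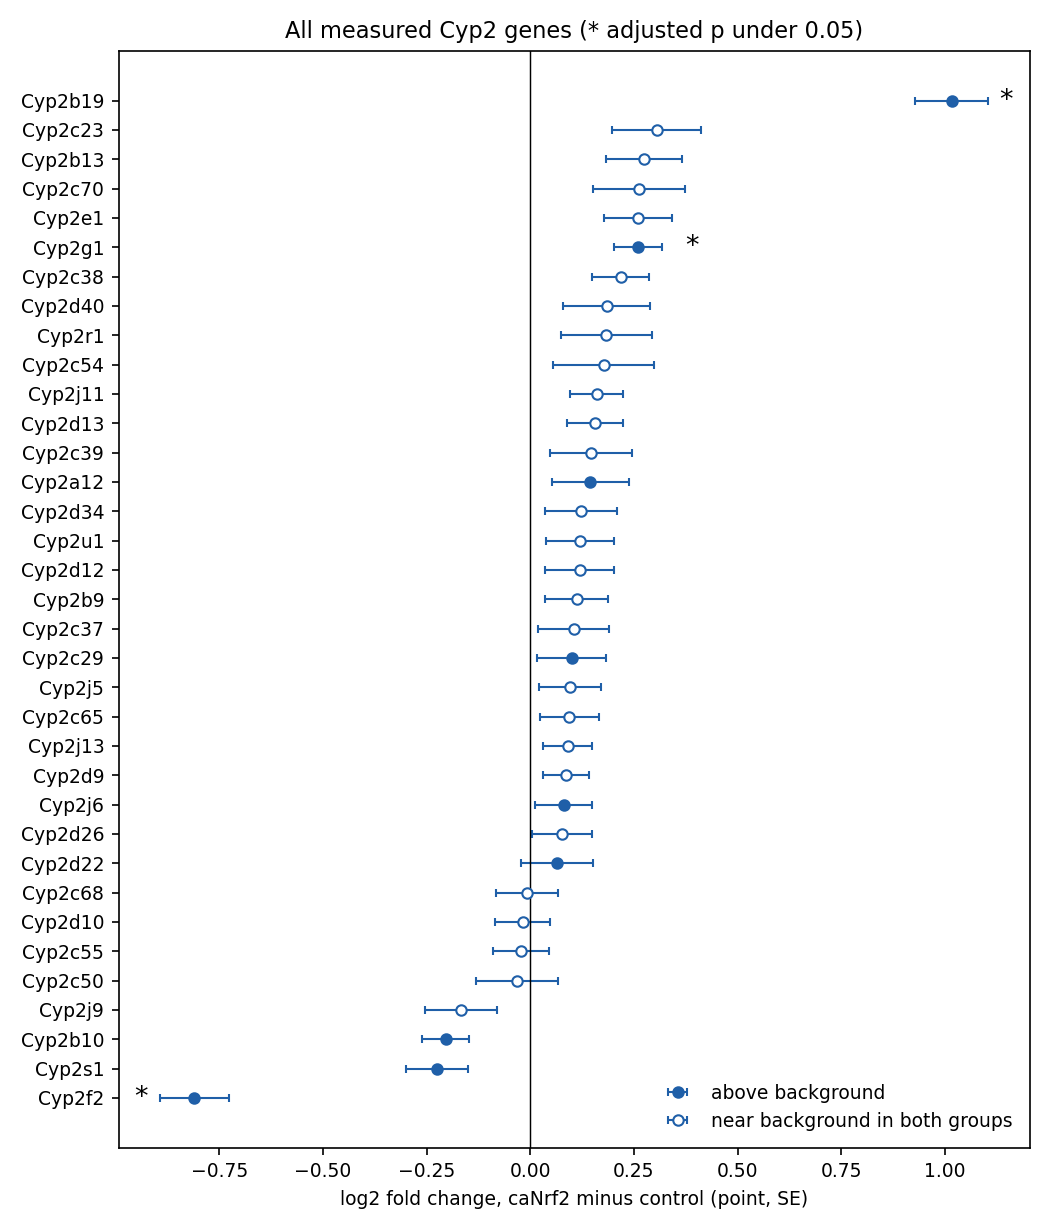
Log2 fold change of caNrf2 over control with its SE for the 35 Cyp2 genes, ordered by value. Filled points are the 9 genes above background, open points the 26 near background in both groups, and asterisks mark adjusted p under 0.05. Cyp2b19 (1.02) and Cyp2f2 (-0.81) stand apart from the other genes, which lie between -0.23 and 0.31.

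The 26 genes near background held most of the liver-type members, among them 10 of the 11 Cyp2c, 7 of the 8 Cyp2d and 4 of the 5 Cyp2j genes. None of the 26 passed, and their log2 fold changes ran from -0.17 to 0.31. Before adjustment, 7 of the 26 were higher at p under 0.05 and 0 were lower (limma), against 10.8% and 9.54% of all genes and 17.6% and 3.1% of all genes near background. They leaned upward, with 21 of 26 (80.8%) above 0 and a median of 0.12. Dim genes leaned the same way over the whole array, where 71.6% of the 5544 genes near background were above 0 and the median was 0.07. The groups did not overlap upward in 8 of the 26 Cyp2 genes (30.8%) and in 17.6% of all dim genes. The lower quartile of the arrays also differed, at 24.9 to 25.4 in caNrf2 and 23.8 to 24.3 in control mice. Its part in these small values was not tested.

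Among all 35 genes, the groups did not overlap in 10 that read higher and 4 that read lower, against 12.7% and 13% of all genes. The higher ones near background were Cyp2c38, Cyp2e1, Cyp2b13, Cyp2c23, Cyp2j11, Cyp2d13, Cyp2d9 and Cyp2j13, and the lower one was Cyp2j9. Cyp2e1, the ethanol-oxidising P450 of liver, read 40.5, 34.3 and 34.6 in the caNrf2 and 30.0, 28.5 and 32.8 in the control mice, a log2 fold change of 0.26 ± 0.08 (limma, adjusted p = 0.126). The gap lay between 32.8 in the highest control and 34.3 in the lowest caNrf2 mouse. Cyp2c23, a renal epoxygenase with the largest value among the dim genes, gave 0.31 ± 0.11 from control readings of 9.29, 12.5 and 12.4, which lie within the range of most Y-linked probe sets. Cyp2j9 read 52.5, 51.7 and 46.3 against 63.4, 53.4 and 52.5, so that the highest caNrf2 and the lowest control mouse read alike. Cyp2r1, the hydroxylase that begins the activation of vitamin D, and Cyp2u1, a fatty acid hydroxylase, were near background and had 0.18 ± 0.11 and 0.12 ± 0.08. The probe set shared by 2 Cyp2a genes read 15.3, 17.4 and 16.5 in the caNrf2 and 12.5, 13.9 and 15.7 in the control mice and did not pass (limma, adjusted p = 0.216).

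Where a gene had a further probe set, it did not give another call. This held for Cyp2d13, Cyp2d22, Cyp2j5, Cyp2j6 and Cyp2u1, each with 2 probe sets, at adjusted p from 0.274 to 0.836 over all single-gene probe sets. The dimmer probe sets of Cyp2j5 and Cyp2u1 gave -0.08 ± 0.07 and -0.04 ± 0.06, opposite in sign to the brighter ones at 0.10 and 0.12, all within the range of the Y-linked probe sets. Cyp2b10 was thus the exception among the 6 genes with several probe sets.

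The 3 called genes all lie in the Cyp2 cluster of chromosome 7, which RefSeq runs from Cyp2s1 through Cyp2t4 and which holds 13 protein-coding Cyp2 genes. Of these, 8 were measured, and 2 were called higher (25%, against 2.26% of all genes), 1 lower (12.5%, against 1.39%) and 5 neither. The cluster was taken up with the calls known, so these shares are only a description. Of the 2 higher calls, that of Cyp2g1 was lost with any 1 mouse left out. Cyp2b19 and Cyp2g1, which rose, are neighbours in this order, and Cyp2f2, which fell, is the fourth gene after Cyp2g1. The 5 other protein-coding genes inside the cluster are Nlrp and vomeronasal receptor genes, and the 3 measured ones, all near background, lay between -0.04 and 0.04. Of the 10 protein-coding genes on each side, 18 were measured, 0 were called, and the log2 fold changes ran from -0.17 to 0.22. Outside the cluster none of the other 27 Cyp2 genes passed, but 24 of these 27 were near background, against 2 of the 8 in the cluster, so only 3 of them were above it.

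**Figure D4:**
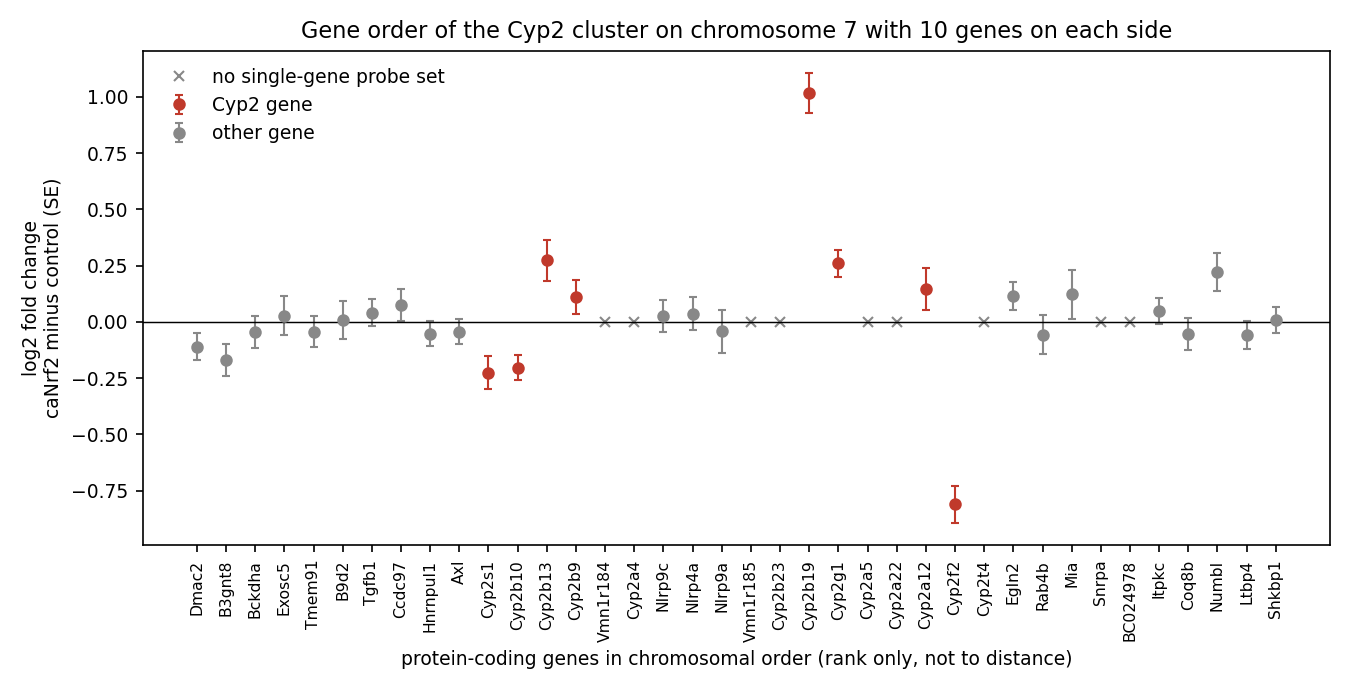
Log2 fold change with its SE for the protein-coding genes of the Cyp2 cluster on chromosome 7 and 10 genes on each side, in chromosomal order by rank and not to distance. Crosses mark genes without a single-gene probe set. Cyp2b19 and Cyp2g1 are adjacent and higher, Cyp2f2 is lower, and the flanking genes lie between -0.17 and 0.22.

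Outside family 2, 1 of 37 measured P450 genes was called higher (2.7%, against 2.26% of all genes) and 0 lower. Cyp4f39, which hydroxylates the very long-chain fatty acids of epidermal acylceramides, read 890, 908 and 890 in the caNrf2 mice and 659, 636 and 627 in the controls, a log2 fold change of 0.48 ± 0.06 (limma, adjusted p = 0.00108). The median of these families was 0.09, and 24 of the 37 were near background.

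Of 15 measured genes that supply P450 enzymes with electrons and haem, 4 were called higher (26.7%, against 2.26% of all genes), 0 lower and 11 neither, and the median was 0.01. P450 reductase itself was not among the 15. Pgrmc1, a haem-binding membrane protein that associates with P450 enzymes, rose from 2413 ± 91.0 to 4340 ± 378 (SD, n = 3), a log2 fold change of 0.84 ± 0.07 (limma, adjusted p = 0.000162). Cytochrome b5 (Cyb5a) rose by 0.45 ± 0.07. The first enzymes of haem synthesis were also called, with Alas1 at 0.32 ± 0.06 and Alad at 0.62 ± 0.13 (limma, adjusted p = 0.0263 and 0.0294). Alad was spread widely among the caNrf2 mice, at 1535, 2119 and 2222 against 1265, 1344 and 1183. Among the fits that left out 1 mouse, Alas1 stayed called only without control replicate 2, and Alad only without caNrf2 replicate 1. In the others of these fits the adjusted p (limma) reached 0.0837 and 0.111.

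Receptors and transcription factors known to control Cyp2 genes showed 1 call, a higher one (5%, against 2.26% of all genes). Nfe2l2, the gene of Nrf2 itself, rose by 0.63 ± 0.07, but by 0.40 ± 0.06 with the mean over its probe sets, and whether its probe set also detects the transgene was not tested. The other 19 of 20 measured did not pass, and the list median was 0.04. Nr1i2 and Nr1i3, the genes of PXR and CAR, were both near background.

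Among 25 measured enzymes that act on arachidonic acid besides the P450 genes, 4 were called higher (16%, against 2.26% of all genes), 1 lower (4%, against 1.39%) and 20 neither, and the median was 0.06. Microsomal epoxide hydrolase Ephx1 read 1055, 1077 and 1076 in the caNrf2 mice and 585, 621 and 562 in the controls, a log2 fold change of 0.86 ± 0.06 (limma, adjusted p = 3.43e-05). Cyclooxygenase Ptgs2 was called higher, at 84.7 ± 4.23 against 37.7 ± 5.52 (SD, n = 3). Its control level was under the background limit, so the size of the log2 fold change is uncertain, at 1.18 in the fit, 0.91 with 16 added to each intensity and 0.87 with the mean over probe sets. The phospholipases Pla2g4e and Pla2g4a, which release arachidonic acid, rose by 0.40 ± 0.06 and 0.37 ± 0.07 (limma, adjusted p = 0.00695 and 0.0157). The member that fell, chosen after its value was seen, was the prostaglandin dehydrogenase Hpgd at -0.42 ± 0.08 (limma, adjusted p = 0.0159). Hpgd was no longer called when caNrf2 replicate 3, control replicate 1 or control replicate 3 was left out (adjusted p up to 0.0658), nor with the mean over its probe sets (-0.16, adjusted p = 0.148). For Pla2g4a the same held when caNrf2 replicate 1, caNrf2 replicate 3, control replicate 1 or control replicate 2 was left out (adjusted p up to 0.0711).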

How the data were processed

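The authors deposited linear intensities for each probe set. The submitters' processing notes name RMA, a method that quantile-normalizes the arrays and thereby hides any shift common to most genes. The RMA version is not given in the sources used here. Of 45101 probe sets, 34945 had 1 gene symbol, 932 had several and 64 were controls. Symbols were updated through the Entrez identifier (34741 matched RefSeq, GRCm38.p6), and a gene was represented by its brightest probe set over the 6 arrays. Log2 intensities were fitted with limma 3.58.1 (R 4.3.3; group as the only term, eBayes without trend, two-sided p), with no filter. The number of arrays, 3 per group from a single litter, limits the precision. Members and lists were chosen with earlier results of these data known. Text names every Cyp2 gene called, above background or with groups apart, other Cyp2 genes by role or probe sets, up to 4 called genes of each list, Hpgd and marker genes. Alternatives covered normalization, the log2 offset, variance model, array weights, filtering, probe set choice, a replicate block and each array left out.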

Additional observations from a re-analysis of the deposited data

How the results depend on the processing

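Cyp2b19 and Cyp2f2 kept their direction and their call in all 14 alternative fits run for each, with log2 fold changes from 0.93 to 1.07 and from -0.89 to -0.75. Their estimates could not move with the replicate block, the trend and robust variances, dim genes left out or the mean over probe sets. In those fits only the error and the adjusted p could differ. With the symbols of the array annotation, the fit of both genes repeated the main one. Of the 23 Cyp2 genes refitted, only Cyp2j5 and Cyp2u1 changed sign, each with its other probe set (-0.085 and -0.038). Most of the 23 were picked because they were called, above background or had groups apart. A gene whose groups do not overlap cannot change sign when 1 mouse is left out. Members close to 0, such as Cyp2c68 (-0.008) and Cyp2d10 (-0.018), were not refitted, so the stability of sign was not tested for them. Cyp2g1 ended as not called with the replicate number as a block (adjusted p = 0.0635), so that fit had 1 higher Cyp2 gene in place of 2, as did the further quantile normalization and the fit of each probe set as its own feature. Lower Cyp2 genes numbered 2 with dim genes left out and with the mean over probe sets, where Cyp2b10 passed as well (adjusted p = 0.046 and 0.0041), and 3 probe sets were lower when each was its own feature. Leaving out 1 mouse gave 1 to 1 higher and 1 to 1 lower Cyp2 genes, and 226 to 316 higher and 72 to 196 lower genes over the whole array, against 412 and 252. The lower count over all genes was 500 with an intensity trend and robust variances and 402 with dim genes left out. Fits without dim genes adjust over fewer genes and estimate the variances anew, and those without 1 mouse have fewer arrays. The cause of any of these moves was not tested. Cyp2 genes near background numbered 25 at the second highest Y-linked group mean and at an intensity of 50, and 19 at the second highest Y-linked probe set (33.6), a limit chosen after the data were seen. The replicate numbers were not shown to pair the mice. Deviations from the group mean correlated at 0.03, 0.13 and 0.09 between mice of the same number, and at -0.15 to 0.07 in the other pairs. Replicates 2 and 3 of caNrf2 each correlated best with the control of the same number. In contrast, caNrf2 replicate 1 correlated best with control replicate 3 (0.07).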
